A study of Danio rerio with 3 samples.

Results

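The transcripts described here are the Hox cluster genes of the zebrafish, 47 genes of the 19824 mRNA entries in a table of 21098 entries. They were taken as every mRNA entry whose symbol begins with hox, a cluster letter from a to d and a paralog number. The larvae were wild-type fish of the Tuebingen strain, collected whole at 6 days post-fertilization (dpf) in pools of about 60 per condition. From a few hours after fertilization they were kept in medium with 0.1% dimethyl sulfoxide (DMSO), a vehicle that all 3 conditions share. The medium held no BDE47, 5 μg/L BDE47 or 500 μg/L BDE47, a brominated diphenyl ether once used as a flame retardant. Each condition was sequenced once, so no difference between conditions has a replicate check, and the error given with a fold change (FC) covers the counting of reads only. The control without vehicle was not analysed here.

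Hox genes encode homeodomain transcription factors that lie side by side in clusters. Within a cluster, genes at one end (the low paralog numbers) are used in the hindbrain and pharyngeal arches, and genes at the other end in the trunk, the tail and the tips of the fins. Their proteins bind DNA with cofactors of the Pbx and Meis families, and retinoic acid switches on many of the anterior genes in the embryo. The fish lineage duplicated its genome, so many clusters come as an a and a b copy.

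The 47 genes fell into 7 clusters, with 7 genes in hoxaa, 5 in hoxab, 11 in hoxba, 4 in hoxbb, 10 in hoxca, 3 in hoxcb and 7 in hoxda. By paralog group, 10 were anterior (groups 1 to 3), 16 central (groups 4 to 8) and 21 posterior (groups 9 to 13). All 47 symbols matched a RefSeq gene on the GRCz12tu assembly. RefSeq lists 49 protein-coding Hox genes there, and the other two of them, hoxc10a and hoxc11b, were not analysed here.

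The values are normalized counts, the reads on each gene after the authors scaled the libraries by the trimmed mean of M-values (TMM). Unless stated otherwise, 3 values in a row stand for the vehicle, the low dose and the high dose, in that order. The named mRNA genes took 34156825, 25125399 and 22186369 reads, and 1 read came to 0.790, 1.09 and 1.25 normalized counts. The 47 Hox genes held 11168, 8170 and 5993 reads, which in the vehicle library ran from 18 to 845 per gene. The lowest value in any library was 7 reads, for hoxb1a at 500 μg/L, so every Hox gene was above the floor of 3 reads throughout. A gene was called past the limit when it differed by 2-fold or more and reached 10 normalized counts in either library of the comparison. Intervals are exact 95% Clopper-Pearson intervals on the share of a gene's reads, called counting intervals below. Normalized counts depend on transcript length, which was not used, so levels are compared between libraries and not between genes.

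At 500 μg/L the Hox genes lay lower than in DMSO vehicle by modest amounts, in each region by sum. The sum was not lower in group 7 (1.14, 0.941 to 1.38), group 13 (1.09, 0.962 to 1.23) or cluster hoxca (1.1, 1.04 to 1.16). In groups 6, 8 and 11 its ratio was below 1 with an interval that held 1. Scaled as CPM over the reads on named mRNA genes, the 47 Hox genes took 327.0 CPM in the vehicle library (exact 95% interval 320.9 to 333.1). They took 325.2 CPM at the low dose (318.2 to 332.3) and 270.1 CPM at the high dose (263.3 to 277.0). The interval at 500 μg/L overlapped neither of the others, and those of DMSO vehicle and 5 μg/L overlapped. Summed over the 47 genes, the normalized counts at 500 μg/L were 0.848 of those in DMSO vehicle (counting interval 0.822 to 0.875), and at 5 μg/L they were 1.01 of them (0.983 to 1.04). The whole larva was the sample, so fewer cells using a Hox gene and less of its RNA per cell cannot be told apart.

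By gene, 34 of the 47 had a ratio below 1 at 500 μg/L, or 72.3%, where 51.1% of the 17758 mRNA genes tested did. The median log2 fold change was -0.36 for the Hox genes and -0.02 for all genes tested (log2 of normalized counts plus 1). The Hox median lay close to the lower quartile of all genes, which was -0.38. Over the 22 Hox genes with at least 100 reads in every library it was -0.13, with 63.6% of ratios below 1. That filter itself depends on the reads at 500 μg/L. Only 3 Hox genes passed the 2-fold limit, all lower, or 6.38% of them, beside 4.74% of all genes tested. No Hox gene was 2-fold higher, a change seen in 7.40% of all genes, and in either direction the limit was passed by 12.1% of them. At a limit of 1.5-fold, 16 Hox genes were lower, beside a background of 14.9%, and 1 was higher, beside 17.0%. The counting interval lay wholly below 1 for 22 Hox genes, or 46.8%, where it did so for 30.6% of all genes, and wholly above 1 for 2 of them, where 31.0% of all genes did. The Hox genes had fewer reads than most, with a median of 198 in DMSO vehicle beside 312 over the named mRNA genes, and a gene with fewer reads has a wider interval.

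**Figure D1:**
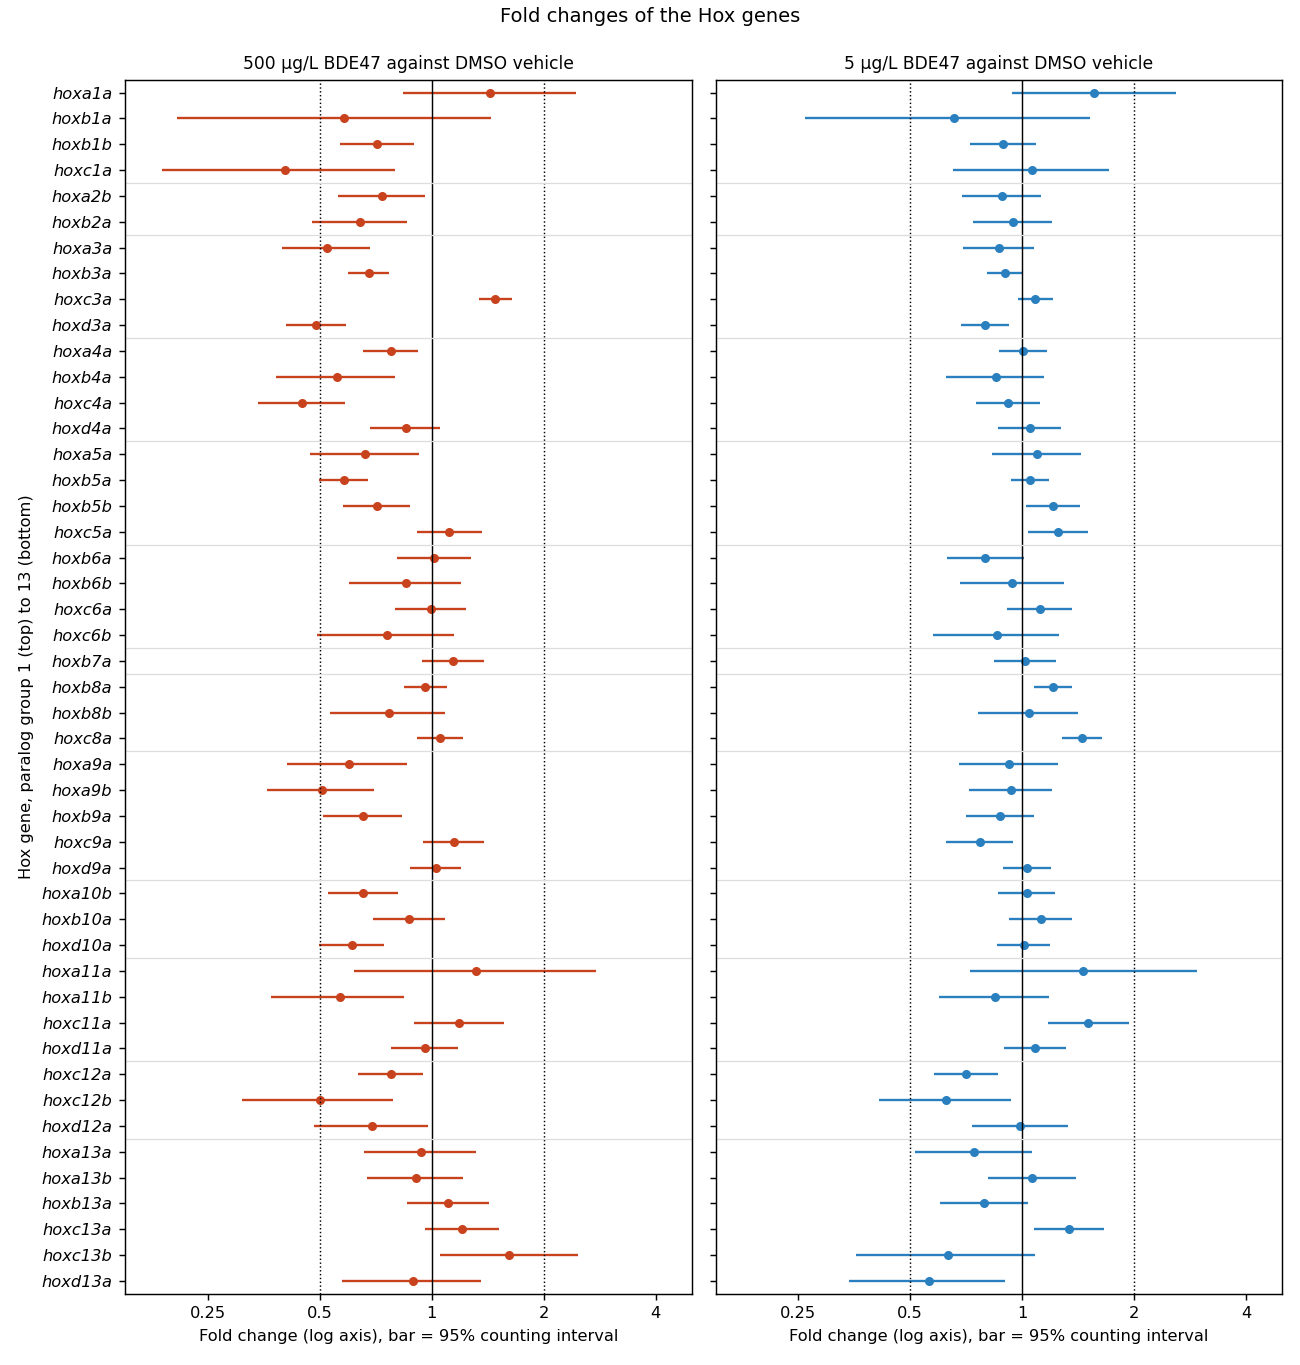
Fold change of each Hox gene at 500 μg/L (left) and 5 μg/L (right) against the same DMSO vehicle library, on a log axis, with the 95% counting interval as a bar and genes ordered from paralog group 1 at the top to 13 at the bottom. Dotted lines mark 2-fold. At 500 μg/L 34 of 47 points lie left of 1 and 3 pass the 2-fold line, and at 5 μg/L none does.

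The 3 genes past the 2-fold limit were hoxc1a, hoxc4a and hoxd3a, all from paralog groups 1 to 4. The transcript hoxc1a measured 34.0, 36.1 and 13.7 normalized counts, from 43, 33 and 11 reads. It was alike in the libraries with no or little BDE47 and low at 500 μg/L, with an FC of 0.404 (0.188 to 0.797), the lowest of any Hox gene. The central gene hoxc4a, of a group that in the mouse helps to shape the neck vertebrae, measured 203, 186 and 91.2 normalized counts. Its FC at 500 μg/L was 0.449 (0.341 to 0.584) and rested on 257 reads in DMSO vehicle and 73 at 500 μg/L. The anterior gene hoxd3a measured 385, 306 and 189 normalized counts, so it was lower at 5 μg/L and lower again at 500 μg/L. Its FC was 0.795 (0.684 to 0.923) at 5 μg/L and 0.490 (0.406 to 0.589) at 500 μg/L. Just outside the limit at 500 μg/L were hoxc12b with an FC of 0.501, hoxa9b with 0.507 and hoxa3a with 0.522. With the libraries scaled to their totals in place of TMM, hoxc12b and hoxa9b passed it too, which made 5 genes. A minimum of 50 normalized counts left hoxc4a and hoxd3a, and edgeR's exact test with a biological coefficient of variation assumed at 0.2 left 0.

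Paralog group 1 sets the identity of hindbrain segments. In the zebrafish hoxb1a gives the fourth rhombomere, the source of the facial motor neurons, its character, and hoxb1b acts earlier in the same region. The gene hoxb1b measured 196, 174 and 139.9 normalized counts, with an FC at 500 μg/L of 0.714 (0.566 to 0.896). For hoxb1a the values were 15, 9.84 and 8.74 normalized counts, from only 19, 9 and 7 reads, and the interval of its FC of 0.582 reached from 0.207 to 1.45. The remaining member hoxa1a measured 25.3, 39.4 and 36.2 normalized counts and so lay higher in both exposed libraries, with an FC of 1.43 at 500 μg/L (0.836 to 2.44). Of these 4 genes, hoxb1b and hoxc1a had a counting interval below 1 at 500 μg/L, beside 30.6% of all genes.

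Group 2 gives the second pharyngeal arch its hyoid identity in the zebrafish, through hoxa2b and hoxb2a together. Normalized counts were 139, 122 and 102 for hoxa2b and 132, 125 and 84.9 for hoxb2a. Both were highest in DMSO vehicle and lowest at 500 μg/L, with FCs of 0.736 (0.560 to 0.962) and 0.644 (0.478 to 0.858), and both intervals lay below 1. At 5 μg/L the intervals of both held 1.

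Group 3 acts in the posterior rhombomeres and the arches behind the hyoid, and in the mouse its A member is needed for the thymus and the parathyroid. Its genes did not move together. The gene hoxa3a measured 175, 151 and 91.2 normalized counts, with an FC at 500 μg/L of 0.522 (0.395 to 0.683). For hoxb3a, the gene with the most reads in hoxba, the values were 668, 600.2 and 452 normalized counts and the FC was 0.677 (0.597 to 0.767). Both, like hoxd3a, stepped down from DMSO vehicle to 5 μg/L to 500 μg/L, but at 5 μg/L the intervals of hoxa3a and hoxb3a held 1.

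The exception was hoxc3a, which measured 614, 666 and 909 normalized counts, from 777, 609 and 728 reads. It was highest at 500 μg/L, with an FC of 1.48 (1.34 to 1.64), and was 1 of the 2 Hox genes with an interval wholly above 1. In RefSeq on GRCz12tu the span of hoxc3a holds 5 other genes of hoxca, namely hoxc4a, hoxc5a, hoxc6a, hoxc8a and hoxc9a. In the same way hoxb3a spans hoxb4a, hoxb5a and hoxb6a, hoxa3a spans hoxa4a and hoxa5a, hoxd3a spans hoxd4a, and hoxb1b spans hoxb5b and hoxb6b. This makes 18 of the 47 genes that share a span with another. How reads in shared stretches were assigned, and whether by strand, is not given in the sources used here, so the values of these 18 genes are uncertain to that extent.

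Without hoxc3a the sum over the 9 other anterior genes at 500 μg/L was 0.632 of that in DMSO vehicle (0.584 to 0.683), and with it the sum over all 10 was 0.851 (0.801 to 0.904). The median log2 fold change of the anterior genes was -0.63 without it and -0.60 with it. So the sum rested on this gene, and the median did not. By sums over all their genes the regions were alike at 500 μg/L, with 0.840 (0.798 to 0.883) for the central and 0.856 (0.811 to 0.904) for the posterior genes, and the anterior share of Hox reads was 27.0% in the vehicle library and 27.1% at the high dose.

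**Figure D2:**
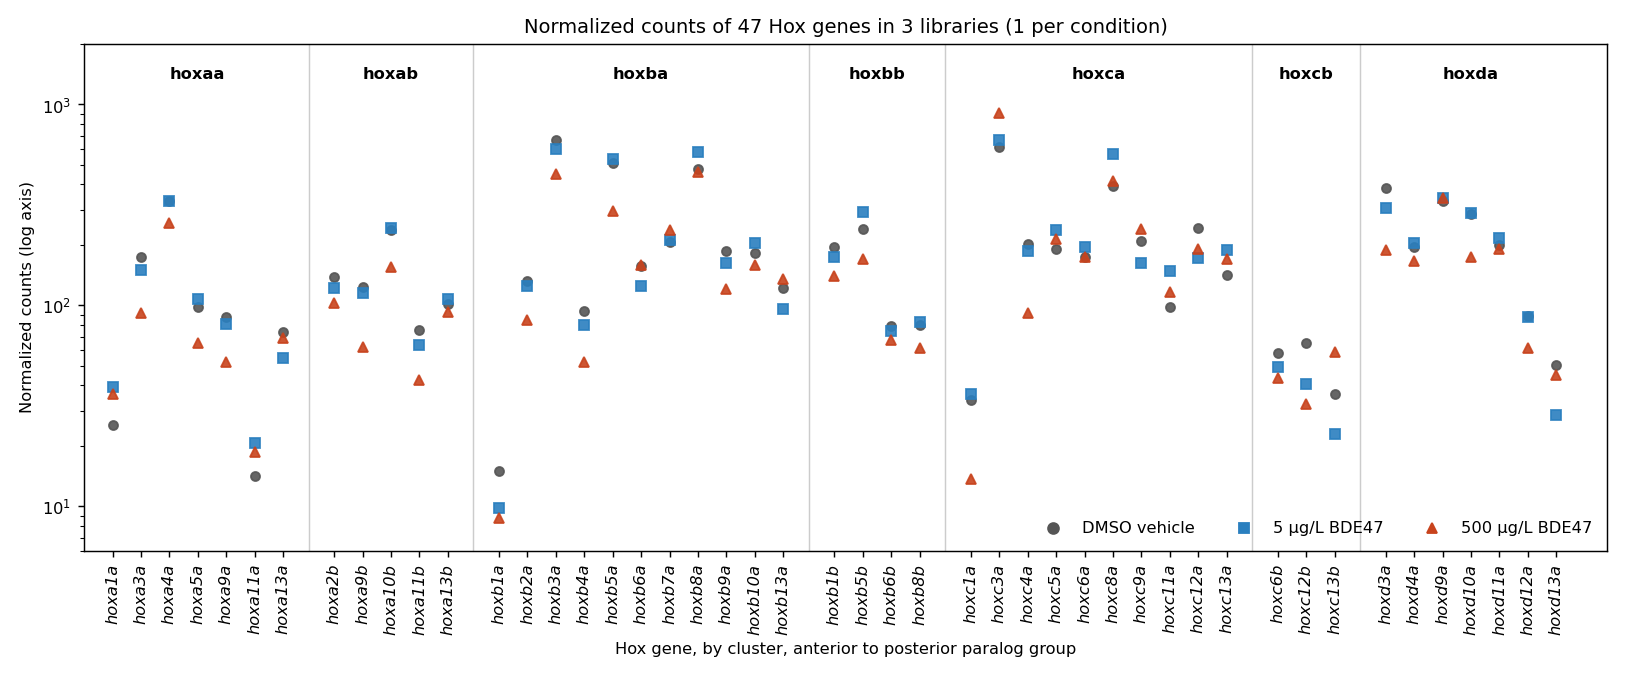
Normalized counts (log axis) of all 47 Hox genes in the 3 libraries, 1 symbol per library, with genes ordered by cluster and then from anterior to posterior. In hoxca, hoxc1a and hoxc4a have their 500 μg/L symbol well under the others, and hoxc3a has it on top, at 909 beside 614 in DMSO vehicle.

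Group 4 marks the caudal hindbrain and the start of the spinal cord. All 4 of its members lay below DMSO vehicle at 500 μg/L, beside 51.1% of all genes. Beside hoxc4a, the gene hoxb4a measured 94.1, 79.8 and 52.5 normalized counts, with an FC of 0.558 (0.383 to 0.799). For hoxa4a, the gene with the most reads in hoxaa, the values were 329.6, 331 and 256 normalized counts, so only the 500 μg/L library stood lower, with an FC of 0.777 (0.654 to 0.921). The gene hoxd4a measured 195.2, 204 and 166 normalized counts, and the interval of its FC of 0.851 held 1.

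All 4 genes of group 5 lay above DMSO vehicle at 5 μg/L, where 2 of the intervals lay above 1, beside 21.5% of all genes. At 500 μg/L 3 of the 4 lay below DMSO vehicle. The zebrafish gene hoxb5b acts downstream of retinoic acid in the field of the pectoral fin, and with 240.3, 291 and 171 normalized counts it was highest at 5 μg/L and lowest at 500 μg/L. Its FC was 1.21 (1.02 to 1.43) at 5 μg/L and 0.712 (0.578 to 0.874) at 500 μg/L, with both intervals clear of 1. It had the most reads of the genes in hoxbb. Its duplicate hoxb5a measured 509.8, 535 and 296 normalized counts, with an FC at 500 μg/L of 0.581 (0.498 to 0.675). The gene hoxa5a measured 98.0, 107 and 65.0 normalized counts and had the same order, with an FC at 500 μg/L of 0.663 (0.470 to 0.923). The fourth, hoxc5a, measured 191, 238 and 214 normalized counts, above DMSO vehicle in both exposed libraries, though its interval at 500 μg/L held 1.

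From group 6 to group 8 the genes of the trunk lay near DMSO vehicle at 500 μg/L. Their 8 ratios ran from 0.758 for hoxc6b to 1.14 for hoxb7a, and every one of the 8 intervals held 1. Over all genes, 30.6% of intervals lay below 1 and 31.0% above. Some of the 8 intervals were wide, since hoxc6b, hoxb8b and hoxb6b had only 35, 49 and 54 reads at 500 μg/L. The trunk gene hoxc8a, whose mouse counterpart helps to specify motor neuron pools of the forelimb, measured 394, 569.5 and 416 normalized counts. It stood out at 5 μg/L only, with an FC of 1.44 (1.27 to 1.64) there and 1.05 (0.915 to 1.21) at 500 μg/L. The gene hoxb8a was highest at 5 μg/L as well, with 479, 579 and 461 normalized counts. The sole member of group 7, hoxb7a, measured 207, 211 and 236 normalized counts, with an interval of its FC at 500 μg/L from 0.941 to 1.38. In group 6, hoxb6a measured 157, 125 and 159 normalized counts and hoxc6a measured 175, 194.6 and 174.

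Of the 21 posterior genes, 9 had an interval below 1 at 500 μg/L, or 42.9%, beside 30.6% of all genes. These 9 included 3 of the 5 genes of group 9 and 2 of the 3 genes of group 10. The gene hoxa9b measured 123, 115 and 62.5 normalized counts, with an FC of 0.507 (0.361 to 0.701), and its duplicate hoxa9a measured 87.7, 80.9 and 52.5, with 0.598 (0.409 to 0.860). The third low member of the group, hoxb9a, measured 186, 162 and 121 normalized counts, with an FC of 0.652 (0.510 to 0.830). In contrast hoxd9a, a gene used in the pectoral fin bud, measured 333, 342 and 341 normalized counts, and its 3 libraries were alike. The remaining member hoxc9a, whose mouse counterpart acts in thoracic motor neurons, measured 210.2, 162 and 241 normalized counts, with an interval below 1 at 5 μg/L (FC of 0.770, 0.625 to 0.944) and one that held 1 at 500 μg/L (FC of 1.15, 0.948 to 1.39).

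Group 10 suppresses rib formation in the mouse. The gene hoxd10a measured 286, 289 and 175 normalized counts and hoxa10b, which has the most reads in hoxab, measured 236, 243 and 155. For both, DMSO vehicle and 5 μg/L were alike and 500 μg/L was low, with FCs of 0.611 (0.499 to 0.745) and 0.655 (0.527 to 0.811). The third, hoxb10a, measured 183, 204 and 159 normalized counts, with an interval from 0.694 to 1.08.

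Groups 11 to 13 act in the tail and, in the a and d clusters, in the distal fin. In group 11 the gene hoxa11b measured 75.1, 63.4 and 42.5 normalized counts, with an FC at 500 μg/L of 0.566 (0.371 to 0.845), and hoxd11a measured 199, 215 and 191, with an interval that held 1. The others lay above DMSO vehicle in both exposed libraries. These were hoxc11a with 98.0, 148 and 116 normalized counts, and hoxa11a with 14.2, 20.8 and 18.7 from no more than 19 reads. At 500 μg/L the intervals of both held 1, and at 5 μg/L only that of hoxc11a lay above 1.

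All 3 genes of group 12 had an interval below 1 at 500 μg/L, beside 30.6% of all genes. The gene hoxc12a measured 244, 173 and 189.9 normalized counts, hoxc12b measured 64.8, 40.4 and 32.5, and hoxd12a measured 88.5, 87.5 and 61.2. The hoxc12 duplicates were already low at 5 μg/L, with FCs of 0.707 (0.580 to 0.859) and 0.624 (0.411 to 0.931), whereas hoxd12a was low at 500 μg/L only.

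Group 13, the most posterior, stayed near DMSO vehicle at 500 μg/L, with a summed ratio of 1.09 (0.962 to 1.23). Of its 6 intervals 5 held 1, where 30.6% of those of all genes lay below 1 and 31.0% above. The sixth gene, hoxc13b, measured 36.4, 23.0 and 58.7 normalized counts, from 46, 21 and 47 reads. It was lowest at 5 μg/L and highest at 500 μg/L, where its FC of 1.61 (1.05 to 2.48) was the highest of any Hox gene. Its duplicate hoxc13a measured 141, 189 and 171 normalized counts. The fin gene hoxd13a measured 50.6, 28.4 and 45.0 normalized counts and was low at 5 μg/L, with an FC of 0.562 (0.342 to 0.899), the lowest ratio of any Hox gene at that dose. The genes hoxa13a with 73.5, 54.7 and 68.7 normalized counts and hoxb13a with 122, 96.2 and 135 had the same low value at 5 μg/L, though their intervals held 1. The duplicate hoxa13b measured 102, 108 and 92.4.

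Taken from head to tail, the median log2 fold change at 500 μg/L was -0.60 for the anterior, -0.30 for the central and -0.17 for the posterior genes, beside -0.02 for all genes tested. Within groups 1 to 4, 12 of 14 genes had a ratio below 1 (85.7%) and 10 had an interval below 1 (71.4%). Within groups 5 to 13, 22 of 33 had a ratio below 1 (66.7%) and 12 had an interval below 1 (36.4%). Over all genes tested these shares were 51.1% and 30.6%. The division after group 4 was made after the values were seen. The order was not smooth, since the medians of groups 9, 10 and 12 (-0.61, -0.61 and -0.53) were as low as those of groups 1 to 5 (-0.60, -0.53, -0.75, -0.60 and -0.54). Groups 6, 7, 8, 11 and 13 lay between -0.12 and 0.19. As a description over the 47 genes, all from the same 2 libraries, Spearman's rho between paralog group and log2 fold change was 0.320. It was 0.226 over the 22 genes with at least 100 reads in every library, and within clusters 0.609 for the 11 genes of hoxba, 0.345 for the 10 of hoxca, 0.321 for the 7 of hoxda and 0.071 for the 7 of hoxaa. Leaving out hoxc3a made the value in hoxca 0.70 over 9 genes.

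**Figure D3:**
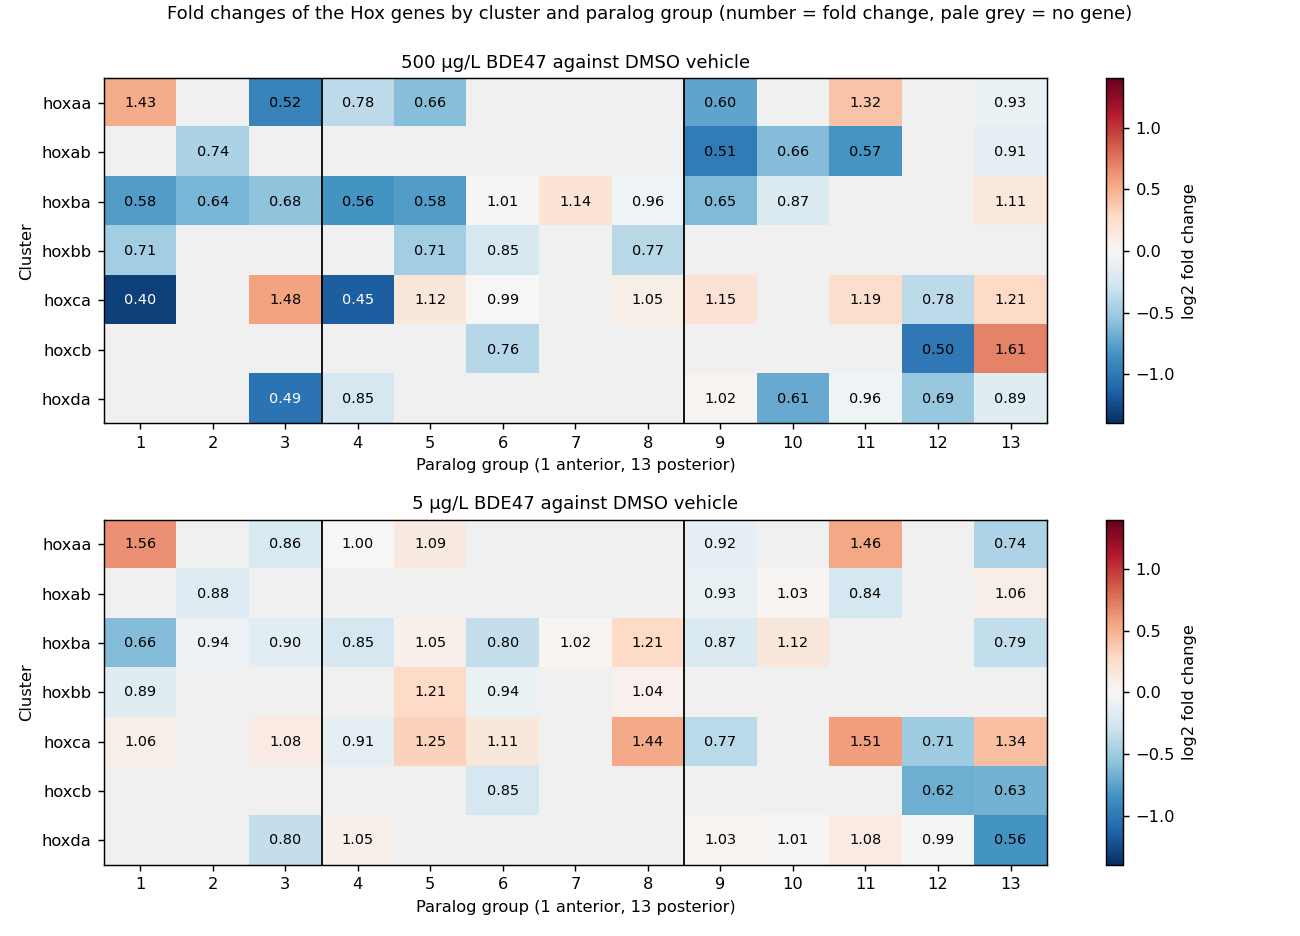
Fold change of each Hox gene against DMSO vehicle (number and colour, on a log2 colour scale), with clusters in rows and paralog groups in columns, at 500 μg/L (top) and 5 μg/L (bottom). Black lines divide anterior, central and posterior groups. At 500 μg/L blue cells fill groups 1 to 5 apart from hoxa1a, hoxc3a and hoxc5a, and the hoxca row is pale or red apart from hoxc1a, hoxc4a and hoxc12a.

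By cluster, 5 of the 7 sums had an interval below 1 at 500 μg/L. The ratio was lowest for hoxab, whose sums were 676, 652 and 455 normalized counts, at 0.673 (0.594 to 0.762). The ratio was 0.733 (0.656 to 0.818) for hoxaa, 0.739 (0.649 to 0.840) for hoxbb, 0.760 (0.702 to 0.822) for hoxda and 0.787 (0.742 to 0.834) for hoxba. All 5 genes of hoxab and all 4 of hoxbb had a ratio below 1, beside 51.1% of all genes.

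The cluster hoxca differed from these, with summed normalized counts of 2306, 2561 and 2536 and a ratio at 500 μg/L of 1.1 (1.04 to 1.16). Its share of all Hox reads was 26.1% in the vehicle library (exact 95% interval 25.3 to 26.9), 28.7% at the low dose (27.7 to 29.7) and 33.9% at the high dose (32.7 to 35.1), so that at the high dose it lay above both others. The higher sum rested on hoxc3a, since without it the sums were 1691, 1896 and 1626 normalized counts and the ratio was 0.962 with an interval that held 1 (0.897 to 1.03). The share of the other 9 genes in the reads of all Hox genes but hoxc3a was 20.6% (19.8 to 21.4), 22.9% (22.0 to 23.9) and 24.7% (23.6 to 25.9). The median log2 fold change of hoxca was 0.12 (0.08 without hoxc3a), while the medians of the other 6 clusters lay between -0.61 and -0.23. The small cluster hoxcb, with 201, 103 and 108 reads in all, had a ratio at 500 μg/L of 0.849 with an interval that held 1 (0.666 to 1.08).

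**Figure D4:**
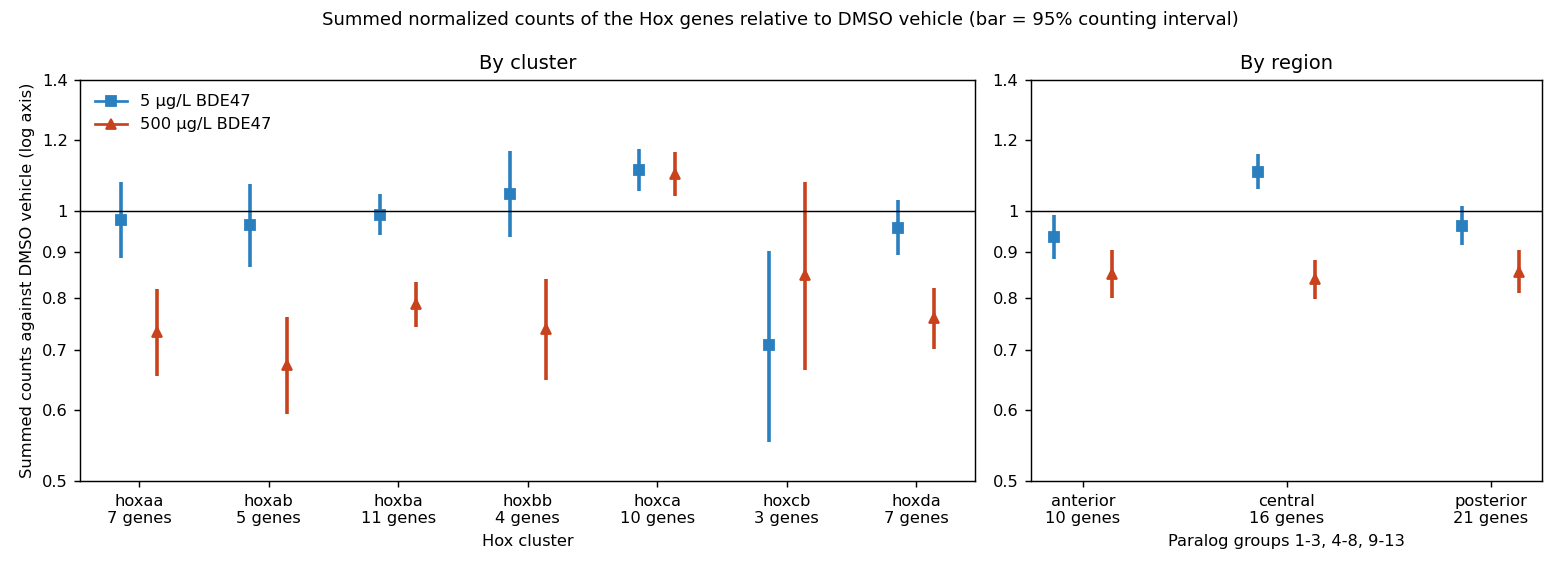
Summed normalized counts of the Hox genes relative to DMSO vehicle (log axis) by cluster (left) and by region (right), at 5 and 500 μg/L, with the 95% counting interval of the sum as a bar. At 500 μg/L 5 clusters lie between 0.673 and 0.787, and hoxca, which includes hoxc3a, lies at 1.1.

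Of the a and b duplicates, 10 gene pairs had both copies among the 47. The counting intervals of the copies overlapped in all 10 at both doses, and the difference itself was not tested. They overlapped least in hoxc13 at 5 μg/L, with 1.08 to 1.66 for hoxc13a and 0.358 to 1.08 for hoxc13b. The widest gap at 500 μg/L was in hoxa11, with FCs of 1.32 for hoxa11a (0.618 to 2.77) and 0.566 for hoxa11b (0.371 to 0.845).

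At 5 μg/L the Hox genes as a group stood where they were in DMSO vehicle. This comparison uses the same DMSO vehicle library as that at 500 μg/L. No Hox gene passed the 2-fold limit in either direction, where 1.97% of the 17670 genes tested were lower and 0.951% were higher, or 2.92% in all. The median log2 fold change was -0.02, beside 0.01 for all genes, and 24 of the 47 ratios were below 1, or 51.1%, beside 48.8% of all genes. At a limit of 1.5-fold, 4 Hox genes were lower (hoxb1a, hoxc12b, hoxc13b and hoxd13a) beside a background of 5.80%. Higher by 1.5-fold were hoxa1a, with an FC of 1.56 (0.939 to 2.59), the highest at this dose, and hoxc11a, with 1.51 (1.17 to 1.94), which makes 2 genes beside 3.53%.

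The counting interval at 5 μg/L was wholly below 1 for 5 Hox genes, or 10.6%, beside 17.8% of all genes, and wholly above 1 for 6, or 12.8%, beside 21.5%. The 6 above were hoxb5b, hoxc5a, hoxb8a, hoxc8a, hoxc11a and hoxc13a, and the 5 below were hoxd3a, hoxc9a, hoxc12a, hoxc12b and hoxd13a. The central genes summed to 1.11 of DMSO vehicle (1.06 to 1.16), the anterior genes to 0.935 (0.884 to 0.990) and the posterior genes to 0.963 (0.915 to 1.01).

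The exposed libraries were also set directly against each other, without DMSO vehicle. Of 46 Hox genes tested (hoxb1a was under the minimum), 37 had a lower value at 500 than at 5 μg/L, or 80.4%, beside 50.6% of the 17707 genes tested. The median log2 ratio was -0.32, beside -0.01 for all genes. Past the 2-fold limit were hoxc1a at 0.381 (0.174 to 0.773) and hoxc4a at 0.491 (0.368 to 0.649), which makes 2 lower genes beside a background of 4.10%. The 1 higher gene, beside 7.39% (11.5% for either direction), was hoxc13b at 2.56 (1.5 to 4.50). That ratio rested on 21 reads at 5 μg/L, where the FC of hoxc13b against DMSO vehicle was 0.631 with an interval that held 1 (0.358 to 1.08). At a limit of 1.5-fold, 12 Hox genes were lower beside 12.9% and 2 were higher beside 16.8%. The interval was below 1 for 19 Hox genes beside 28.6% of all genes, and above 1 for 4 beside 29.5%, namely hoxc3a, hoxc9a, hoxb13a and hoxc13b. With hoxc3a included, the central genes differed most between the doses by their sum, with a ratio of 0.759 (0.720 to 0.80). The ratio was 0.910 (0.852 to 0.971) for the anterior and 0.889 (0.839 to 0.943) for the posterior genes. Without hoxc3a the anterior ratio was 0.715 (0.657 to 0.778), under the central one, so this order rested on that gene.

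Genes that work with or upstream of Hox genes were read from lists. The cofactors, the Pbx, Meis and Pknox proteins that bind DNA beside Hox proteins, were lower as a list at 500 μg/L. Of 9 found among 14 listed, none passed the 2-fold limit, beside 12.1% of all genes, and the median log2 fold change was -0.46. An interval below 1 was found for 8, or 88.9%, beside 30.6% of all genes, but these genes had more reads (a median of 1486 in the vehicle library beside 312) and so narrower intervals. The lowest were meis3, with 582, 536 and 350 normalized counts and an FC of 0.601 (0.522 to 0.691), and meis2, with 3652, 3665 and 2475 and an FC of 0.678 (0.643 to 0.714). Of the 9 only pbx2 lay above DMSO vehicle, with 1265, 1499 and 1532 normalized counts and an FC of 1.21 (1.12 to 1.31). At 5 μg/L the median of the list was -0.01.

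The retinoic acid list (25 of 26 found) had a median of -0.29 at 500 μg/L and -0.01 at 5 μg/L. Its 1 gene past the limit at 500 μg/L was rdh10b, a retinol dehydrogenase that makes the precursor of retinoic acid, with 263, 319 and 861 normalized counts and an FC of 3.27 (2.87 to 3.74). That was 4.0% of the list, beside 7.40% of all genes higher. The gene aldh1a2, which makes retinoic acid itself, measured 1263, 1257 and 1221 normalized counts, and cyp26a1, which degrades it, measured 391, 518 and 292. The receptor gene rxraa measured 254, 256 and 139.9 normalized counts, with an FC at 500 μg/L of 0.551 (0.441 to 0.686). A second receptor gene, rxrab, measured 53.0, 26.2 and 94.9 normalized counts and was the 1 gene of the list past the limit at 5 μg/L, with an FC of 0.495 (0.297 to 0.80). That was again 4.0% of the list, beside 1.97% of all genes lower at that dose.

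The hindbrain segmentation list, all 17 of them found, had a median of -0.45 at the high dose, where 11 of its intervals lay below 1 (64.7%, beside 30.6% of all genes), and -0.02 at the low dose. Its median number of reads in the vehicle library was 295, close to that of all genes. Past the limit were gbx1, with 100.4, 84.2 and 46.2 normalized counts and an FC of 0.460 (0.310 to 0.669), and egr2a, with 29.2, 25.1 and 59.96 and an FC of 2.05 (1.31 to 3.24). That was 5.88% of the list in each direction, beside 4.74% of all genes lower and 7.40% higher. The egr2 genes mark the third and the fifth rhombomere in the embryo, and the other copy, egr2b, measured 90.9, 90.7 and 109.9 normalized counts.

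The list of hindbrain and spinal cord neuron genes (23 of 27 found) moved in the same direction as the Hox genes at 500 μg/L, with a median of -0.44, 15 intervals below 1 (65.2%, beside 30.6% of all genes) and 5 above, from a median of 730 reads in the vehicle library beside 312. At 5 μg/L its median was 0.05. Its lowest gene was dbx1a, of ventral interneuron precursors, with 118, 146 and 57.5 normalized counts and an FC of 0.488 (0.343 to 0.683). The general neuronal gene elavl3 measured 1436, 1198 and 891 normalized counts. In contrast, the cholinergic genes chat, with 937, 1062 and 1307 normalized counts and an FC of 1.39 (1.28 to 1.52), and slc18a3a, with 1107, 1214.5 and 1432 and an FC of 1.29 (1.19 to 1.399), lay above DMSO vehicle. The summed list stood at 29097, 31691 and 28706 normalized counts, much of it from gad1b and gad2, with FCs at 500 μg/L of 1.06 and 1.32, and no gene of the list had fewer than 20 reads. What part a shift in the neurons of the larva had in the Hox values was not tested.

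The Polycomb and Trithorax list, chromatin regulators that keep Hox genes off or on (23 of 28 found), had a median of -0.03 at 500 μg/L, close to that of all genes. The list had no gene past the limit, beside 12.1% of all genes. Its extremes with at least 50 normalized counts were kdm6bb, a histone demethylase gene with an FC of 0.614 (0.564 to 0.668), and bmi1, a Polycomb gene with 1.61 (1.46 to 1.78). The ParaHox and Hox-linked genes (10 of 12 found) had a median of -0.23. Of these eve1, an even-skipped gene of the tail bud, measured 11.9, 25.1 and 28.7 normalized counts from 15, 23 and 23 reads. It passed the limit at 500 μg/L with an FC of 2.42 (1.21 to 4.99) and at 5 μg/L with 2.12 (1.06 to 4.37). At each dose it was the 1 gene past the limit among the 10 found. Of all genes, 7.40% were higher at 500 μg/L and 0.951% at 5 μg/L. Both FCs of eve1 rest on the same 15 reads in DMSO vehicle, so they are not independent.

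The fin list, all 18 of them found, had a median of -0.18 at 500 μg/L. Past the limit were 3 genes, all lower, or 16.7% of the list beside 4.74% of all genes. These were and1 with 1966, 1269 and 778 normalized counts and an FC of 0.396 (0.362 to 0.432), and3 with 1749, 1540 and 735 and an FC of 0.420 (0.383 to 0.460), and msxc with 287, 265 and 139.9 and an FC of 0.488 (0.391 to 0.604). The and genes encode actinodins, proteins of the fin fold rays, and and2 measured 4543, 4109 and 5746 normalized counts, with an FC of 1.26. The Hox genes of groups 11 to 13 in the a and d clusters had FCs from 0.566 for hoxa11b to 1.32 for hoxa11a at the same dose. None of them passed the limit, beside 12.1% of all genes.

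**Figure D5:**
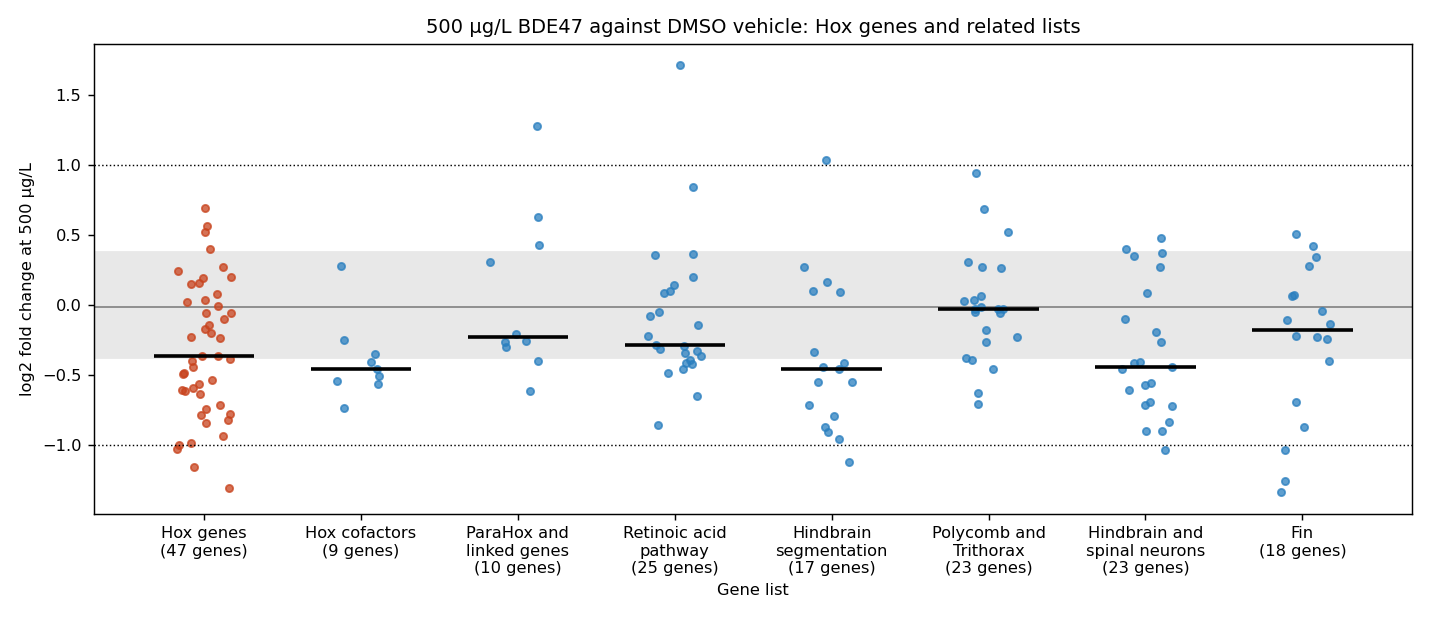
Log2 fold change at 500 μg/L against DMSO vehicle for the Hox genes and 7 related lists, 1 point per gene, with the median of each list as a bar. The grey band spans the quartiles of all genes tested (-0.38 to 0.38) and dotted lines mark 2-fold. The medians of the Hox genes (-0.36), cofactors (-0.46), hindbrain segmentation genes (-0.45) and neuron genes (-0.44) lie near or under the lower edge of the band.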

How the data were processed

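Polyadenylated RNA from pooled whole larvae was sequenced in pairs on an Illumina HiSeq instrument. Mapping was to the zebrafish Zv9 and human hg19 assemblies, and the authors applied TMM normalization and deposited the resulting signal, normalized counts per gene. How reads were counted, on which annotation and whether by strand is not given in the sources used here. Every value (100% in each library) was a whole multiple of the worth of 1 read, to within 0.01 of a read, and reads were recovered on that basis.

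Entries that carry a clone prefix in place of a name (11, of which 10 were mRNA, with 15.3 to 15.6% of mRNA reads) were left out of all counts and totals, which left 19814 named mRNA genes. FCs were ratios of normalized counts, and medians used log2 with a pseudocount of 1. With 1 library per condition no test between conditions was made. Tests that compare libraries served as alternatives only. These were the formula of the MARS method, Fisher's exact test, and the exact test of edgeR at an assumed BCV. Both exact tests had Benjamini-Hochberg adjustment. MARS is a method of DEGseq, the package the study used without naming a method. Its formula was applied to normalized counts without adjustment, and DEGseq itself was not run. Other alternatives were no minimum, a minimum of 50, scaling to the total or to a median of 0, and a pseudocount of 5. Intervals cover counting error only.

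The members and the gene lists were chosen with earlier results of these data known. Any Hox gene could be named. From each list the genes past the 2-fold limit were named, and otherwise up to 2 with the largest change in each direction among genes with at least 50 normalized counts, while aldh1a2, cyp26a1, egr2b, elavl3, chat, slc18a3a, gad1b, gad2 and and2 were added after their values were seen. Gene spans and symbols came from RefSeq on GRCz12tu, whose coordinates are not given because the build differs. The software was R 4.3.3 (edgeR 4.0.16) and Python 3.11.15 (scipy 1.17.1, pandas 2.3.3, matplotlib 3.10.9, numpy 2.4.6).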

Additional observations from a re-analysis of the deposited data

How the results depend on the processing

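Medians kept their sign under the alternatives other than the filter of at least 100 reads in every library. Over the 22 Hox genes that passed that filter, the median was -0.13 at 500 μg/L. At 5 μg/L it was 0.05, beside -0.02 over all Hox genes. Under the other alternatives the Hox median at 500 μg/L ran from -0.40 to -0.35. The anterior median ran from -0.63 to -0.55, the central from -0.33 to -0.22 and the posterior from -0.20 to -0.15. The counts moved more. With a limit of 1.5-fold the lower Hox genes numbered 16 at 500 μg/L, 4 at 5 μg/L and 12 between the doses, and the higher ones 1, 2 and 2, while all genes past the limit numbered 5659, 1648 and 5249, beside 2155, 516 and 2035 at 2-fold. Scaling to the total per library gave 5 lower Hox genes at 500 μg/L. edgeR's exact test with a biological coefficient of variation (BCV) assumed at 0.2 called 0 Hox genes in all 3 comparisons, with 740, 5 and 618 of all genes, and at 0.4 it again called 0 Hox genes, with 20, 0 and 29 of all genes. The share of higher genes among those called was then 77.0% and 100% at 500 μg/L 80.3% and 100% between the doses and 20% with 0.2 at 5 μg/L, beside 61.0%, 64.3% and 32.6% without the test. A minimum of 50 normalized counts left 126 genes past the limit at 5 μg/L (20.6% were higher) and 1 lower Hox gene between the doses. No minimum gave 1622 genes at 5 μg/L and 3123 between the doses, and Fisher's exact test gave 316 at 5 μg/L. Alternatives for the direct comparison of the doses were chosen after seeing the data. So were those without hoxc3a (for medians, sums and shares), those without genes of overlapping span and those with at least 100 reads. Without the overlapping genes the central median between the doses was -0.25 beside -0.35. The cause of these moves was not tested. No paired analysis was possible because each condition had 1 library. With 1 library per condition the spread between larvae and batches is unknown, and genes such as hoxb1a, hoxa11a and hoxc1a rest on few reads.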

Other observations

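A further Hox entry lay outside the 47 genes. The pseudogene hoxa10ap, listed as a noncoding RNA, had 3 reads in DMSO vehicle (2.37 normalized counts) and 0 in each exposed library. All of these lie at or under the floor of 3 reads, so no fold change is given.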
